A study of Mus musculus with 24 samples.

Results

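The question was whether the effect of a histone deacetylase inhibitor on neuronal chromatin depended on fear conditioning. The measure at each peak of histone H3 lysine 27 acetylation (H3K27ac) was the drug effect in conditioned mice (HDACi-CFC minus Veh-CFC) minus the drug effect in mice that saw only the chamber (HDACi-Context minus Veh-Context), in log2 units, and it is called the interaction here. A value above 0 means that the mark stood higher, relative to vehicle, with shock than without. All 12 H3K27ac libraries of the 24 labelled samples entered, 3 in each of the 4 groups, and 144014 of 144154 peaks were tested. The other 12 samples are input libraries and were not analysed here.

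The 4 groups were male C57BL/6J mice aged 12 weeks, and the labels name no transgene or deletion. HDACi-CFC and HDACi-Context mice were injected intraperitoneally with CI-994 at 30 mg/kg, and Veh-CFC and Veh-Context mice with the carrier alone (dimethyl sulfoxide, Kolliphor and saline). Injections came 1 h before the test, and tissue was taken 1 h after it. HDACi-CFC and Veh-CFC mice underwent contextual fear conditioning (CFC), in which 2 foot shocks (1 s, 0.2 mA) came after 3 min of habituation. HDACi-Context and Veh-Context mice spent as long in the chamber with no shock. Nuclei came from the dentate gyrus by the source label, from the hippocampus by the titles, and were sorted for the neuronal nuclear protein NeuN, with about 750000 nuclei per sample. Drug was randomised over mice but the protocol over cages, so that effects of the cage and of the shock cannot be told apart. The labels do not say that replicates are separate mice, so p-values measure only the spread between these samples, which may be technical. No spike-in was given, so all differences are relative to the rest of a library, and fewer nuclei of a type cannot be told apart from less mark per nucleus.

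H3K27ac is laid down by acetyltransferases such as CBP and p300 at active promoters and enhancers and is removed by deacetylases. CI-994 blocks the class I deacetylases, Hdac1, Hdac2 and Hdac3 among them, which act within corepressor complexes. In hippocampal neurons strong activity, such as that evoked by learning, switches on immediate early genes (Fos, Arc, Egr1, Npas4 and the Nr4a nuclear receptors) within minutes, and Nr4a2 is a gene whose induction deacetylase inhibitors are known to raise in memory studies.

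Libraries held between 6639158 counts in peaks (replicate 2 of Veh-Context) and 16734757 (replicate 2 of HDACi-Context), and the median biological coefficient of variation was 0.131. The mean correlation with the other libraries of the group was lowest in Veh-CFC replicate 1 (r = 0.912). All 16 listed granule neuron markers, Prox1 and Calb1 among them, had a promoter peak. Of 18 listed CA pyramidal neuron markers, Nr4a2 among them, 11 had one. Of 18 interneuron markers 14 had none, and of 15 endothelial and mural markers 12 had none. Oligodendrocyte markers kept signal, with 14 of 16 measured, although the nuclei were sorted for NeuN. Defining markers of that type with no promoter peak were Opalin and Nkx6-2, and those of microglia were Aif1, C1qa, Itgam, Ly86, Siglech and Trem2.

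At 44 of the 49 peaks called above 0 (0.034% of peaks tested) the drug lowered the mark without shock (5.85% of all peaks tested), and at 6 it raised the mark with shock (0.483%). The sequences that follow belong to peaks called above 0. The first set gives the 250 bases before the RefSeq start (GRCm38.p6, equal to the mm10 build of the files) for the 4 called promoter peaks with the lowest p that hold a start of their named gene, and for 2 others that hold a searched motif. Capitals mark the motif, which is an EGR word in Ncdn, an AP-1 word in Ap1g2 and the core of a cAMP response element (CRE) in Zmynd8.
Nat14, chr7:4922336-4922585, plus strand: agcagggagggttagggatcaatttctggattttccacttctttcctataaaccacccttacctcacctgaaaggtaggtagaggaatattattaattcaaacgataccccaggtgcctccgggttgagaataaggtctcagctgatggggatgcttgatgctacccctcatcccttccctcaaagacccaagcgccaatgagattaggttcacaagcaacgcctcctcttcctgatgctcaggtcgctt
Hpca, chr4:129121748-129121997, minus strand: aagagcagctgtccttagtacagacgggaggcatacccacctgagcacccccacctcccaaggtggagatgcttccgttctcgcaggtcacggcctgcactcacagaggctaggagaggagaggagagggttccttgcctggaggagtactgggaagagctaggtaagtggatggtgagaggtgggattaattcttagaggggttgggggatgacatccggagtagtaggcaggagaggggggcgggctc
Ncdn, chr4:126752568-126752817, minus strand: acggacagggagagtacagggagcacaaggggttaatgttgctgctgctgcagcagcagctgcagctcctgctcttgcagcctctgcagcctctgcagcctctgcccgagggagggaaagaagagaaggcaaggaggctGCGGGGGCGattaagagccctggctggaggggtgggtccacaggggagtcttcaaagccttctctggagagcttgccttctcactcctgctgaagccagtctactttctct
Speg, chr1:75385360-75385609, plus strand: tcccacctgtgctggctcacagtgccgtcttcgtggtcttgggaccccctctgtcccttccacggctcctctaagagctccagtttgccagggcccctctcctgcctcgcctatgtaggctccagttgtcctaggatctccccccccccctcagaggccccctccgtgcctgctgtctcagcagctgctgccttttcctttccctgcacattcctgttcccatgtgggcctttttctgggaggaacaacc
Ap1g2, chr14:55106594-55106843, minus strand: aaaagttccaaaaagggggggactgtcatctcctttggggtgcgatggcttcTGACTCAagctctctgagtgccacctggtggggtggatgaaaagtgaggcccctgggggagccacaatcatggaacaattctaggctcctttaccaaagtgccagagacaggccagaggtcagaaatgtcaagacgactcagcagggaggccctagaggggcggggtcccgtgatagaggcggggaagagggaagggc
Zmynd8, chr2:165858174-165858423, minus strand: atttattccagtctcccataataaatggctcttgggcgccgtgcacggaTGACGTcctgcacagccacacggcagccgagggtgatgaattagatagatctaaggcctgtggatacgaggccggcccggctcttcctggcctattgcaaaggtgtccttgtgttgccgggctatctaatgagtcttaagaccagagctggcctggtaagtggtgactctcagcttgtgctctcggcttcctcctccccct

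Over 13 called promoter peaks that held a start of their named gene, each of these 3 motifs occurred once, on either strand, in the window of 250 bases before and 50 after the start. The AP-1 words (TGACTCA or TGAGTCA) were in 4.63% of the windows of 4302 tested promoter peaks with such a start, the EGR words (GCGGGGGCG or GCGTGGGCG) in 2.51% and the CRE core TGACGT in 9.32%. The full CRE TGACGTCA, which contains that core and was in 2.53% of those windows, the E-box CACGTG (7.23%), the NR4A-type word AAGGTCA (4.49%) and a serum response element word (0.0465%) were in 0 of the 13. Windows of called peaks had a median GC content of 58.3%, against 54.3% over all those windows. With 13 windows these shares describe the peaks and were not tested.

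A second set gives mature microRNAs whose genes lie inside called peaks, with the seed (bases 2 to 8) in capitals. A broad peak over the noncoding RNA gene Lncppara on chromosome 15 holds the hairpins of Mirlet7c-2 and Mirlet7b, whose main products share a seed, and the peak that the file names Mir6999 lies in Dgkz.
mmu-let-7c-5p, chr15:85706616-85706637, plus strand: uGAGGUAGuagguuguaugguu
mmu-let-7b-5p, chr15:85707325-85707346, plus strand: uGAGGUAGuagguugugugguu
mmu-miR-6999-5p, chr2:91944908-91944930, minus strand: aAGGAAGGagagucagcaagcac

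By edgeR's quasi-likelihood test with Benjamini-Hochberg adjustment over all peaks, the interaction was above 0 at 49 peaks (0.034% of those tested) and below 0 at 1 peak (0.000694%). At an unadjusted p under 0.05 there were 10663 peaks above 0 (7.4%) and 5868 below (4.07%), and the median over all peaks was 0.01. The 49 peaks had a median interaction of 1.00, within 0.69 to 2.89, on a log2 scale. They were named for 48 genes on 18 chromosomes, and all of them had the strong-promoter (16) or active-enhancer state (33) in the deposited table. Promoter peaks were those that covered the transcription start site (TSS) named beside the peak or had an edge within 1000 bp of it. Of the 49, 30 were promoter peaks. That was 0.14% of the 21468 promoter peaks tested, with 0 promoter peaks below 0 (171 at an unadjusted p under 0.05, against 3569 above).

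The number of calls depended strongly on single libraries. Without HDACi-Context replicate 1 the test called 3477 peaks above and 254 below 0, without Veh-CFC replicate 1 it called 2363 and 225, and without Veh-Context replicate 1 it called 834 and 40. Without HDACi-CFC replicate 1 it called 9 and 0, and with any one of the 8 libraries numbered 2 or 3 left out it called 0 to 2 above and 0 below 0. The 49 peaks were also called in each of the 3 fits that gave more calls. With library totals in place of TMM factors, or with loess offsets, 1 peak passed, and DESeq2 called 992 above and 3 below. None of the 50 called peaks changed sign in any of the alternative fits (988 values), and the smallest size in any fit was 0.22. These peaks were selected for their interaction in the same libraries that the other fits reuse. A change of sign was therefore unlikely from the start, and its absence is no further support. The peak named Naa38 was the one that passed most often, in 11 of 12 fits with a library left out and in 8 of 8 other alternatives.

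The form of the interaction can be read from the group levels. HDACi-Context had the lowest mean of the 4 groups at all 49 peaks above 0, as it did at 33.4% of all peaks tested. The 3 HDACi-Context libraries lay below all 9 others at 44 of the 49 peaks, against 7.0% of all peaks. The drug effect in Context was below 0 at a called level in 44 of the 49 (5.85% of all peaks tested fell there, and 2.73% rose), with a median of −0.85 over the 49. In CFC the drug raised 6 of the 49 (0.483% of all peaks rose there, and 0.435% fell), and the median was 0.14. These drug effects share libraries with the interaction, so their counts describe what was called and are no further support for it. HDACi-CFC and Veh-CFC libraries overlapped at 29 of the 49 peaks (59.2%), against 82.9% of all peaks tested. At 31 of the 49 the drug lowered the mark in Context while the log2 change in CFC stayed within 0.25. Read across the shock, the mark was higher in CFC than in Context at a called level with the drug at all 49 (20.2% of all peaks tested were higher and 17.8% lower; median 1.42) and with vehicle at 24 (4.41% of all were higher and 2.74% lower; median 0.41), and the vehicle difference was above 0 at 45.

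**Figure D1:**
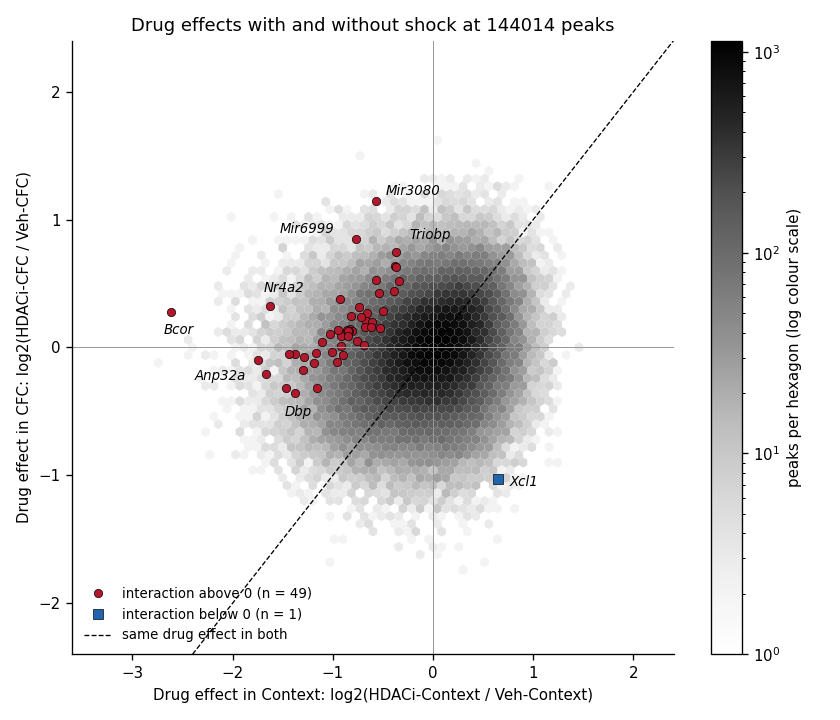
Drug effect in CFC (y axis) against drug effect in Context (x axis), both as log2 of drug over vehicle, for all 144014 peaks (grey hexagons, darker for more peaks, log colour scale). The 49 peaks with a called interaction above 0 (red circles) lie left of the vertical zero line, with drug effects in CFC of −0.36 to 1.14, and Xcl1 (blue square) is the 1 peak called below 0.

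The leading peak, named for Naa38, a subunit of the NatC amino-terminal acetyltransferase, spans chr11:69394211-69398883 and also overlaps Kdm6b, which encodes a demethylase of H3K27. Its levels were 26.6, 26.9 and 24.4 CPM (counts scaled to the size of the library) in HDACi-CFC libraries, 29.5, 28.3 and 22.5 CPM in Veh-CFC, 9.39, 8.06 and 6.26 CPM in HDACi-Context, and 18.3, 21.1 and 22.2 CPM in Veh-Context. Every HDACi-Context library was below every other library, while the HDACi-CFC libraries lay within the Veh-CFC range. The interaction was 1.32 ± 0.20 (SE, n = 3 per group; edgeR adjusted p = 0.00262), made of a drug effect of −0.05 ± 0.13 in CFC and −1.37 ± 0.14 in Context.

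Membrane proteins of neurons gave several called peaks. The promoter peak of Kcnj4, an inward rectifier potassium channel, held 12.8, 15.7 and 11.7 CPM in HDACi-CFC, 11.9, 10.4 and 8.21 CPM in Veh-CFC, 4.38, 3.83 and 2.65 CPM in HDACi-Context, and 5.82, 8.39 and 6.98 CPM in Veh-Context. The 2 CFC groups overlapped and the 2 Context groups did not. The interaction was 1.31 ± 0.26 (adjusted p = 0.0368), with a drug effect of 0.38 ± 0.17 in CFC and −0.93 ± 0.20 in Context. A peak over Igsf8 and the potassium channel gene Kcnj9 passed as well (0.84 ± 0.16). So did an intergenic peak that the file names for Unc5a, a netrin receptor (0.81 ± 0.16). That peak is at −66733 bp from the start of Unc5a and overlaps no protein-coding gene. It holds the starts of the noncoding genes Gm40959 and Gm31188.

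Hpca encodes hippocalcin, a calcium sensor abundant in the hippocampus, and its peak differed in form. It held 63.4, 66.3 and 67.0 CPM in HDACi-CFC, 55.7, 46.6 and 43.9 CPM in Veh-CFC, 34.3, 29.1 and 21.6 CPM in HDACi-Context, and 36.9, 42.0 and 45.1 CPM in Veh-Context. Drug libraries were above vehicle libraries with shock and below them without, with no overlap in either pair. The interaction was 0.97 ± 0.18 (adjusted p = 0.0368). Of its parts the drug effect in Context passed (−0.54 ± 0.13) and that in CFC did not (0.43 ± 0.13, adjusted p = 0.086). Lingo1, a neuronal receptor component that inhibits axon growth and myelination, had drug effects of 0.44 ± 0.12 in CFC (adjusted p = 0.053) and −0.39 ± 0.12 in Context, with an interaction of 0.83 ± 0.17.

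**Figure D2:**
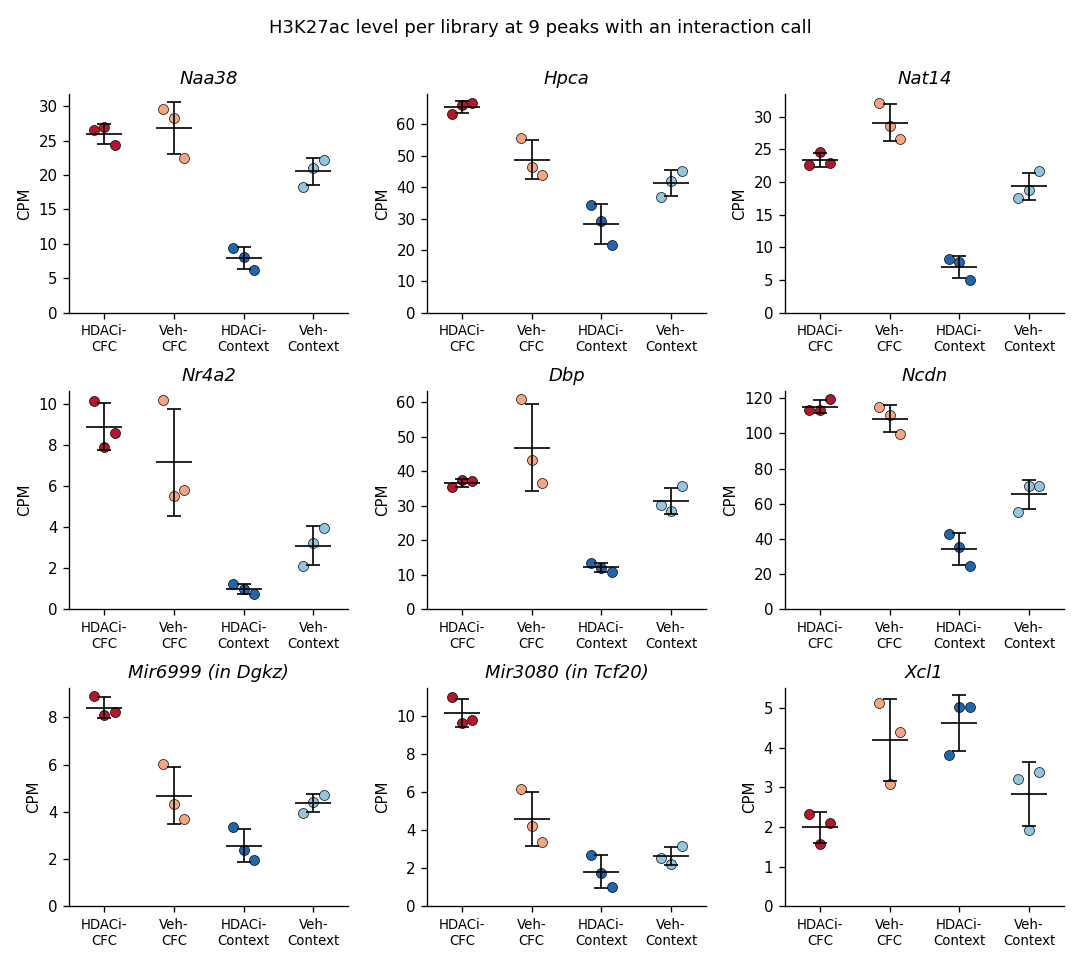
H3K27ac level in CPM (y axis, from 0) per library at 9 peaks with a called interaction, by group (x axis). Points are the 3 libraries of a group, in replicate order, and the bar and whiskers give mean and SD. HDACi-Context is the lowest group in 8 panels, and in the Xcl1 panel HDACi-CFC is the lowest.

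Transcription factors and chromatin proteins formed another share of the calls. The promoter peak of Nr4a2, an orphan nuclear receptor and immediate early gene, held 10.1, 7.90 and 8.57 CPM in HDACi-CFC, 10.1, 5.51 and 5.80 CPM in Veh-CFC, 1.25, 0.985 and 0.748 CPM in HDACi-Context, and 2.09, 3.24 and 3.97 CPM in Veh-Context. All CFC libraries exceeded all Context libraries, and HDACi-Context stood below Veh-Context with no overlap. The interaction was 1.95 ± 0.37 (adjusted p = 0.0368), and the shock effect was 3.15 with the drug and 1.21 with vehicle. The drug effect passed in Context (−1.62 ± 0.30), where HDACi-Context held few reads, but not in CFC (0.33 ± 0.21, adjusted p = 0.56). Of 10 other tested peaks named for Nr4a2, 7 had an interaction above 0. At an unadjusted p under 0.05, 0 of them were above and 1 was below 0. Dbp, a clock output factor of the PAR bZIP family, had 35.4, 37.3 and 37.0 CPM in HDACi-CFC, 60.8, 43.2 and 36.5 CPM in Veh-CFC, 13.6, 12.1 and 10.8 CPM in HDACi-Context, and 30.2, 28.4 and 35.6 CPM in Veh-Context. Here vehicle was the higher group in both protocols by mean, and the drug effect passed in Context (−1.38 ± 0.14) but not in CFC (−0.36 ± 0.13, adjusted p = 0.22), for an interaction of 1.02 ± 0.19. An intronic peak of Rxra, the retinoid X receptor that partners Nr4a receptors, had an interaction of 0.99 ± 0.20. A peak 74303 bp wide over Zmynd8, which encodes a reader of acetylated histones, had 0.69 ± 0.14, and Anp32a, a component of an inhibitor of histone acetyltransferases, had 1.64 ± 0.32. Over the 8 alternative fits that kept all libraries, the Zmynd8 value ran from 0.22 to 0.70. The largest called value was at a peak of the corepressor gene Bcor (2.89 ± 0.54), where the HDACi-Context libraries held only 0.695, 0.174 and 0.136 CPM, so that its size rests on very few reads.

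Signalling and cytoskeletal genes included Ncdn (neurochondrin), a regulator of CaM kinase II, with 113, 113 and 119 CPM in HDACi-CFC, 115, 110.4 and 99.8 CPM in Veh-CFC, 42.8, 35.5 and 24.7 CPM in HDACi-Context, and 55.5, 70.2 and 70.1 CPM in Veh-Context. Its interaction was 1.01 ± 0.18 (adjusted p = 0.0368), with a drug effect of 0.09 ± 0.13 in CFC. A peak 55001 bp wide that the file names Mir7220 covers Camk2a, the alpha subunit of CaM kinase II, and had an interaction of 0.78 ± 0.16. Dusp7, a phosphatase of the MAP kinase ERK, had 1.08 ± 0.20, Coro2b, a coronin that binds actin, 0.81 ± 0.16, and Pdxp, a phosphatase of cofilin, 1.06 ± 0.22. In alternative fits that kept all libraries the value fell as low as 0.34 at the peak named Mir7220 and 0.45 at Coro2b. Nat14, a predicted acetyltransferase, had 1.15 ± 0.20, and its drug effect in Context was −1.47 ± 0.15. Ppp6r1, a regulatory subunit of protein phosphatase 6, had 1.15 ± 0.20 at a peak that lies over Hspbp1, and Speg, a kinase best known from striated muscle, 1.13 ± 0.21. Outside promoters, the peak near Wscd2 had 0.98 ± 0.17 and that of the protocadherin Pcdh1 0.88 ± 0.16. The grouping of called loci by role was made after they were called and is a description.

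In the 5 peaks where the drug effect passed in CFC and not in Context, the drug added mark with shock. They were named for Mir3080, Triobp, Cebpa, Rps10 and Mir3085. The peak named Mir3080 lies in Tcf20, a transcriptional coregulator gene, and held 11.01, 9.67 and 9.83 CPM in HDACi-CFC, 6.17, 4.24 and 3.40 CPM in Veh-CFC, 2.71, 1.74 and 1.02 CPM in HDACi-Context, and 2.54, 2.21 and 3.16 CPM in Veh-Context. All 3 HDACi-CFC libraries were above all others, while the Context groups overlapped. Its drug effect was 1.14 ± 0.22 in CFC and −0.57 ± 0.27 in Context (adjusted p = 0.19), with an interaction of 1.71 ± 0.35. Triobp, which binds and bundles actin, had drug effects of 0.75 ± 0.15 in CFC and −0.37 ± 0.16 in Context, and Cebpa, a bZIP transcription factor gene, 0.63 ± 0.14 and −0.38 ± 0.15. Rps10, a protein of the small ribosomal subunit, had 0.63 ± 0.14 and −0.37 ± 0.15 at a peak beside its gene.

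One peak of all 144014 had called drug effects of opposite sign. It lies in Dgkz, the gene of a diacylglycerol kinase, and carries the name Mir6999. It held 8.91, 8.11 and 8.23 CPM in HDACi-CFC, 6.04, 4.35 and 3.68 CPM in Veh-CFC, 3.34, 2.38 and 1.97 CPM in HDACi-Context, and 3.96, 4.42 and 4.70 CPM in Veh-Context, with no overlap within either protocol. The drug effect was 0.84 ± 0.20 in CFC and −0.77 ± 0.22 in Context, and the interaction 1.61 ± 0.30 (adjusted p = 0.0368).

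The 1 peak below 0 was an intergenic peak of the control state, at −7126 bp from the start of Xcl1, a chemokine gene. Its levels were 2.32, 1.56 and 2.10 CPM in HDACi-CFC, 5.14, 3.08 and 4.39 CPM in Veh-CFC, 3.82, 5.04 and 5.03 CPM in HDACi-Context, and 3.21, 1.91 and 3.38 CPM in Veh-Context. Drug and vehicle libraries did not overlap in either protocol, with lower levels under the drug after shock and higher ones without shock. The interaction was −1.68 ± 0.35 (adjusted p = 0.0494), just inside the threshold. Among the 6 peaks just outside the threshold 1 was below 0, at Kcnt2, a sodium-activated potassium channel gene (−1.89 ± 0.40, adjusted p = 0.051). On the other side the last peaks inside the threshold were at Nphp4, a ciliary gene, and Kbtbd11 (adjusted p = 0.0488 for both), and those just outside included Pdlim4 (1.01 ± 0.21, adjusted p = 0.051).

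Called peaks lay close together in several places. On chromosome 15 a stretch of 904 kb (chr15:78604419-79508415) held 5 of them, at Cyth4, Elfn2, Pdxp, Triobp and Kcnj4. Of 172 peaks tested there 141 had an interaction above 0, with 54 above and 0 below 0 at an unadjusted p under 0.05 and a median of 0.55, against 0.01 over all peaks. The stretch was picked for its called peaks and overlaps 29 protein-coding genes. In the quintile of peaks with most protein-coding genes within 500 kb, the median was 0.22 and 67.6% were above 0. Adjacent peaks on chromosome 15 were both called at Lncppara, where 5 peaks were tested. The broader of them, which holds the let-7 hairpins shown above, had 268, 282 and 280.3 CPM in HDACi-CFC, 253, 223 and 204 CPM in Veh-CFC, 117, 94.8 and 86.4 CPM in HDACi-Context, and 129, 133 and 158 CPM in Veh-Context. HDACi-Context libraries were below Veh-Context libraries and HDACi-CFC above Veh-CFC, with no overlap, for an interaction of 0.78 ± 0.15. That value fell as low as 0.41 in alternative fits that kept all libraries. Around other called peaks the neighbours often leaned the same way: the other 19 tested peaks named for Nphp4 all had an interaction above 0, as did 45 of 49 at Lingo1 and 24 of 27 at Rxra, while at Pcdh1 12 of 19 did. At Anp32a 9 of 16 did, and at C430002N11Rik 4 of 9. Over all peaks 50.7% were above 0, and the share was 65.0% of active-enhancer peaks and 75.1% of strong-promoter peaks.

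The called peaks were wide and strong. Their median width was 5428 bp against 1189 bp over all peaks, and their median SE was 0.20 against 0.36, so that smaller interactions could pass there than elsewhere. Of the 49 peaks 41 were in the highest quintile of peaks by mean level and 27 in the quintile with most protein-coding genes within 500 kb.

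By chromatin state the interaction ran in opposite directions. Strong-promoter peaks had a median of 0.24, from medians of −0.14 for the drug effect in CFC and −0.39 in Context. Active-enhancer peaks had 0.14 (0.05 in CFC and −0.09 in Context). Primed-enhancer peaks had −0.09 (0.04 in CFC and 0.14 in Context), and peaks of the control state −0.14 (−0.08 in CFC and 0.08 in Context). At an unadjusted p under 0.05, 16.5% of strong-promoter peaks were above and 0.512% below 0, and 13.5% and 1.70% of active-enhancer peaks. For primed enhancers the order turned, with 2.75% above and 5.12% below, and for the control state with 2.24% and 6.80%. Active-enhancer peaks that were also promoter peaks had the highest median of these classes, 0.35, with 17 of 3361 called. The first 3 of these states were refitted with each library left out, and their medians kept their signs, within 0.21 to 0.27 for strong promoters, 0.13 to 0.17 for active enhancers and −0.11 to −0.06 for primed enhancers. With library totals as the scaling they were 0.15, 0.05 and −0.18, and the median of all peaks was −0.08.

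**Figure D3:**
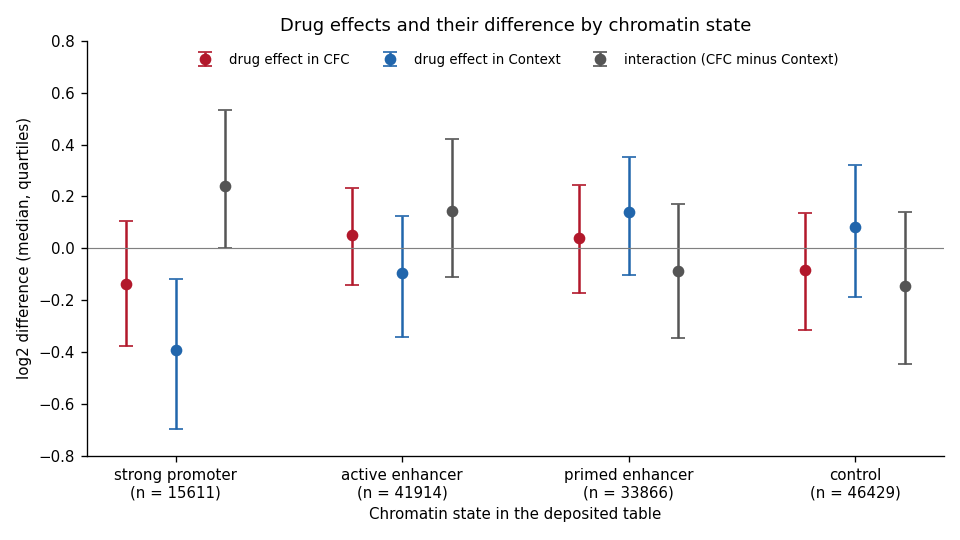
Median and quartiles over peaks (points and whiskers, log2 difference on the y axis) of the drug effect in CFC, the drug effect in Context and the interaction, for the 4 largest chromatin states of the deposited table (x axis). Strong promoters and active enhancers have interaction medians above 0, 0.24 and 0.14, and primed enhancers and the control state below 0, −0.09 and −0.14.

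The gradient by gene density had the same form. From the quintile of peaks with the fewest protein-coding genes within 500 kb to the quintile with the most, the median interaction was −0.14, −0.06, −0.001, 0.09 and 0.22, while the median drug effect in Context was 0.14 in the first quintile and −0.24 in the last, and that in CFC lay between −0.03 and −0.003 in all 5. The parts of promoters and chromatin states in this gradient were not tested.

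Per library, the share of counts in active-enhancer peaks was 50.1%, 50.2% and 49.6% in HDACi-CFC, 49.0%, 48.4% and 47.7% in Veh-CFC, 46.5%, 44.6% and 44.1% in HDACi-Context, and 46.8%, 47.5% and 48.5% in Veh-Context. The drug libraries were above the vehicle libraries with shock and below them without, with no overlap. The drug effect was 1.60 percentage points in CFC and −2.56 in Context, a difference of 4.16 (two-sided exact permutation of drug labels within each protocol, p = 0.005, the smallest of 400 relabellings; adjusted p = 0.03 over 6 measures). This relabelling tests against no drug effect in either protocol. A drug effect shared by both widens the reference spread, so p-values here are not exact for the difference between protocols. For peaks of the control state the difference was −2.89 points (exact permutation p = 0.015, adjusted p = 0.045). Among CFC libraries this share averaged 18.8% ± 0.422 under CI-994 and 19.8% ± 0.842 under vehicle, and among Context libraries 23.6% ± 0.938 under CI-994 and 21.8% ± 0.581 under vehicle (SD over 3 libraries). Promoter peaks as a class (2.38 points, exact permutation p = 0.09, adjusted p = 0.18), primed enhancers (−2.04, p = 0.12, adjusted p = 0.18) and strong promoters (0.82, p = 0.48, adjusted p = 0.58) did not pass, nor did the total count (p = 0.93). In all of these the drug effect had the same sign in both protocols. It was 0.82 points in CFC and 2.86 in Context for primed enhancers, and −1.25 and −2.07 for strong promoters. Whether such shared effects differ in size is a question this permutation cannot decide. The active-enhancer difference was past the threshold in 8 of 12 recomputations with a library left out, and missed it without HDACi-CFC replicate 2 and without each of the Veh-Context libraries (adjusted p up to 0.09). The control-state difference was past it in 5 of 12. It missed it without any 1 of HDACi-CFC replicates 1, 2 and 3, Veh-CFC replicate 3 and the Veh-Context libraries (adjusted p up to 0.09). Over the 12 recomputations the differences were 3.66 to 4.88 points for active enhancers and −3.43 to −2.48 for the control state.

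**Figure D4:**
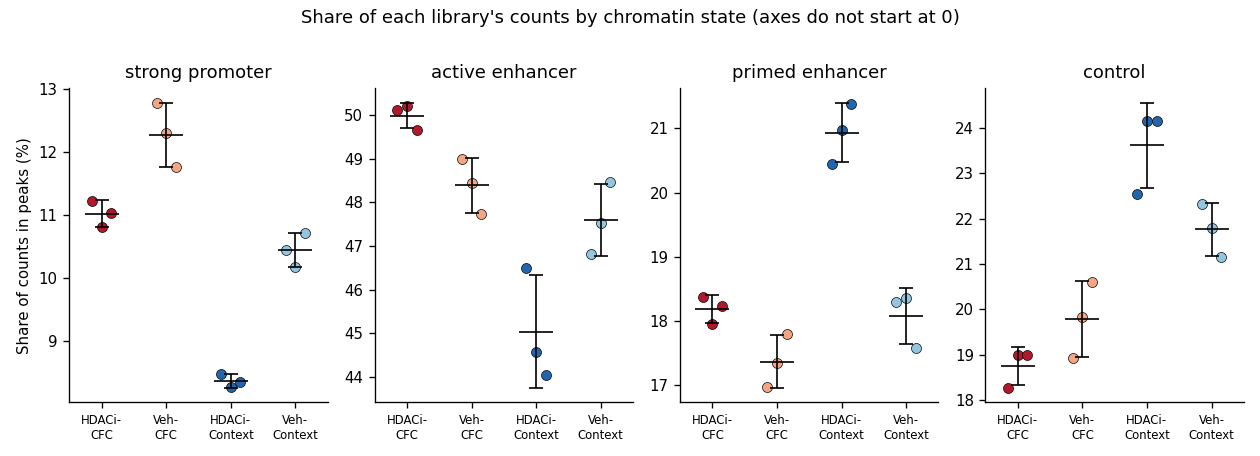
Share of each library's counts (percent, y axes not starting at 0) in peaks of 4 chromatin states, by group (x axis). Points are libraries in replicate order, and bar and whiskers give mean and SD. The active-enhancer share was 49.6% to 50.2% in HDACi-CFC and 44.1% to 46.5% in HDACi-Context, with the vehicle groups between them.

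Gene lists were read at 1 promoter peak per gene, over 14154 genes, of which 24 were called above 0 and 0 below, 2637 were above and 103 below 0 at an unadjusted p under 0.05, and the median interaction was 0.21. Immediate early genes had the highest median of the functional lists, 0.52 over 27 genes, with 1 called (Nr4a2), 14 above 0 and 0 below at an unadjusted p under 0.05. Their median drug effect was 0.29 in CFC and −0.37 in Context, against −0.08 and −0.31 over all genes. The median interaction stayed within 0.41 to 0.64 over the 20 alternative fits, and was 0.75 with the peak nearest the TSS and 0.24 with all peaks within 50 kb. Over all genes it was 0.23 and 0.07 with those choices of peak. Within 50 kb glycolysis genes had 0.25, so the first rank of immediate early genes did not hold there.

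Members of this list differed in how the drug acted. Nr4a1, a sister receptor of Nr4a2, had 14.1, 12.1 and 13.6 CPM in HDACi-CFC, 14.0, 8.59 and 8.78 CPM in Veh-CFC, 6.40, 4.17 and 3.74 CPM in HDACi-Context, and 6.12, 7.80 and 9.63 CPM in Veh-Context, and its interaction of 1.08 ± 0.28 did not pass (adjusted p = 0.098). The AP-1 subunit genes Fosb (1.39 ± 0.35) and Junb (0.83 ± 0.22) and the clock gene Per1 (0.75 ± 0.17, adjusted p = 0.062) did not pass either. Egr1, a zinc finger factor, had 77.4, 83.7 and 75.5 CPM in HDACi-CFC, 65.9, 55.2 and 50.0 CPM in Veh-CFC, 53.3, 47.4 and 38.8 CPM in HDACi-Context, and 45.7, 47.0 and 52.0 CPM in Veh-Context. The drug raised it in CFC, with no overlap, and the Context groups overlapped, but the interaction did not pass (0.52 ± 0.17, adjusted p = 0.19).

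Fos, the AP-1 gene most used as a marker of neuronal activity, had nearly equal drug effects. It held 10.4, 8.63 and 11.01 CPM in HDACi-CFC, 7.71, 5.94 and 5.52 CPM in Veh-CFC, 6.60, 6.61 and 6.33 CPM in HDACi-Context, and 3.28, 5.30 and 4.63 CPM in Veh-Context. Drug libraries exceeded vehicle libraries in both protocols, and the interaction was 0.05 ± 0.26 (95% interval −0.48 to 0.58). Bdnf, a neurotrophin gene, had −0.001 ± 0.17 (−0.34 to 0.34). For Npas4, an activity-induced factor, the value was 0.48 ± 0.17 (0.14 to 0.81, adjusted p = 0.23), and for Arc, a regulator of AMPA receptor uptake, 0.76 ± 0.36 (−0.05 to 1.56, adjusted p = 0.47). Each value is of 1 promoter peak. Over all 23 tested peaks named for Fos the interactions ran from −2.09 to 1.55, with 1 above and 1 below 0 at an unadjusted p under 0.05. Over 26 named for Bdnf they ran from −1.14 to 0.42, with 1 above and 2 below 0 at that level.

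Lists of excitatory synapses and signalling had medians of 0.28 to 0.38 at the promoter peak, against 0.21 over all genes, and the list of GABA receptor and synthesis genes had 0.13. Of 40 postsynaptic genes (glutamate receptors and their scaffold), 17 were above and 0 below 0 at an unadjusted p under 0.05, and the median was 0.31. Among those that did not pass were Grin2b (0.90 ± 0.24), Grin1 (0.74 ± 0.24), both NMDA receptor subunits, and Dlg4, which encodes the scaffold PSD-95 (0.54 ± 0.16). Presynaptic release genes had a median of 0.38, with 0 of 36 called and 18 above and 0 below 0 at an unadjusted p under 0.05, led by Slc17a7, the vesicular glutamate transporter (0.81 ± 0.19, adjusted p = 0.080), and Rph3a, an effector of Rab3a (0.61 ± 0.16). With the peak nearest the TSS the median was 0.19 for that list, 0.19 for the signalling list and 0.33 for the postsynaptic list, against 0.23 over all genes. Over peaks within 50 kb it was 0.07, 0.06 and 0.04 for the same lists, against 0.07 over all genes. Of 59 genes of cAMP, calcium and MAP kinase signalling 0 were called, 18 were above and 0 below 0 at that level, and the median was 0.28, with Mapk3 (ERK1) at 1.05 ± 0.23 and Adcy1, a calmodulin-stimulated adenylyl cyclase, at 0.76 ± 0.19. Voltage-gated channel genes had a median of 0.31 (0 of 47 called, and 15 above and 0 below 0 at an unadjusted p under 0.05).

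Hormone, clock and metabolic lists held few calls as well. Glucocorticoid response genes had a median of 0.45 with 0 of 21 called, and 11 above and 0 below 0 at an unadjusted p under 0.05. Of 20 clock genes 1 was called (Dbp), with 7 above and 0 below 0 at that level and a median of 0.28, and Per2 had 0.73 ± 0.17 and Nr1d1 0.55 ± 0.16 without passing. Glycolysis genes had a median of 0.33 with 0 of 21 called and 10 above and 0 below 0 at that level, led by Gapdh (0.97 ± 0.21, adjusted p = 0.063). Another peak of the glycolytic gene Eno2, neuron-specific enolase, was called at its start (1.21 ± 0.25). Deacetylase and corepressor genes had a median of 0.33 with 0 of 23 called. Of these 17 were above 0, and at an unadjusted p under 0.05 there were 7 above and 0 below. Of the targets of CI-994, Hdac3 had 0.69 ± 0.21 (adjusted p = 0.17), Hdac1 0.35 ± 0.20 and Hdac2 −0.03 ± 0.29. At Hdac3 the drug effect in Context passed (−0.999 ± 0.16) and that in CFC did not (−0.31 ± 0.15). These values are of 1 promoter peak per gene. Over all tested peaks the median interaction was −0.30 for the 4 named for Hdac3, 0.35 for the 3 named for Hdac1 and −0.03 for the 5 named for Hdac2. At an unadjusted p under 0.05, 1 peak was above 0 at Hdac3 and 1 below 0 at Hdac1.

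Lists of basic cell machinery lay near or below the median of all promoters. Cytosolic ribosomal protein genes had 0.23 (1 of 70 called, Rps10, a gene family with near-identical copies, so that its reads are uncertain), mitochondrial ribosomal protein genes 0.17, respiratory chain genes 0.16, translation factors 0.12, histone cluster genes 0.09 and proteasome genes 0.08. Reads of histone genes can be shared between near-identical copies. The last 2 medians, and those of GABA receptor and synthesis genes (0.13) and granule neuron markers (0.08), turned negative in 1 or 2 of the 20 alternative fits.

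**Figure D5:**
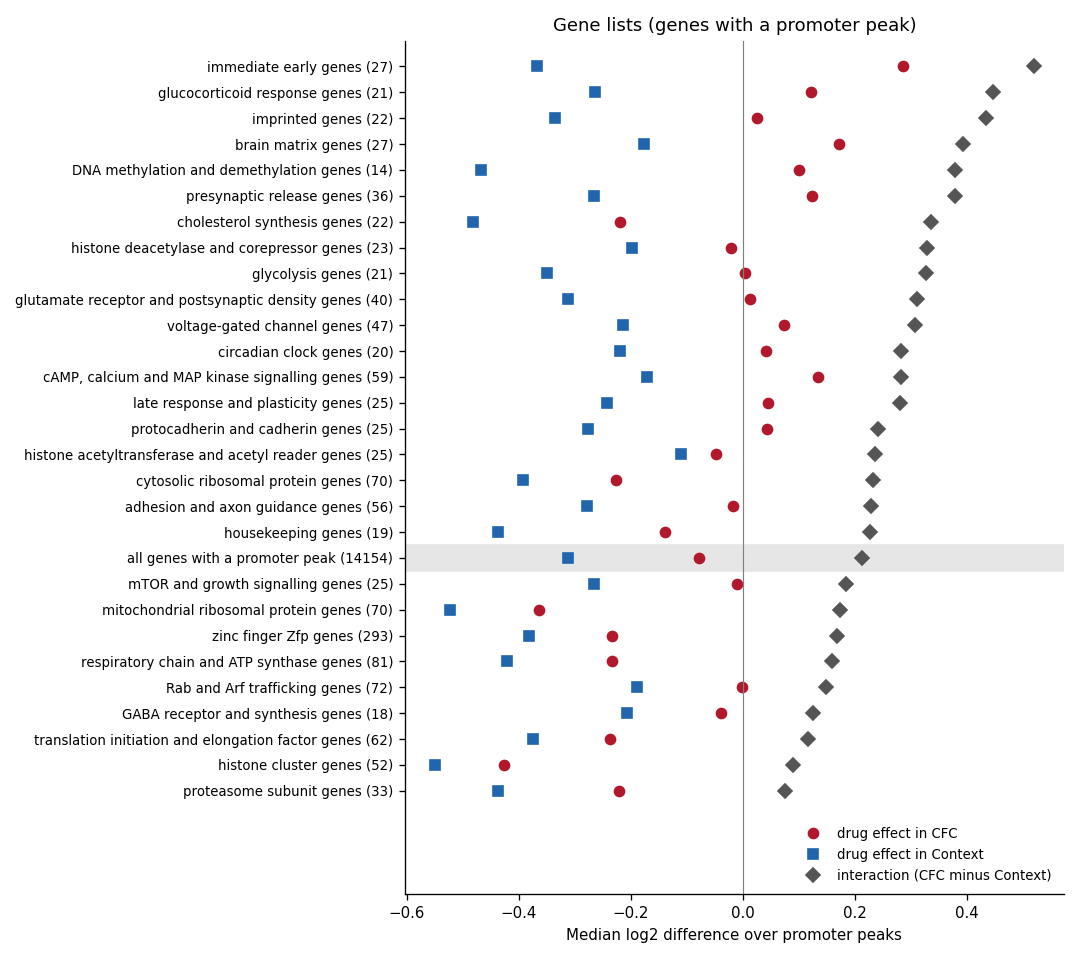
Median over promoter peaks of the drug effect in CFC (circles), the drug effect in Context (squares) and the interaction (diamonds), as log2 differences (x axis), for gene lists ordered by the interaction (y axis, number of genes with a promoter peak in brackets). All interaction medians are above 0, from 0.08 for proteasome genes to 0.52 for immediate early genes, and the grey band is all 14154 genes, at 0.21.

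Markers of other cell types also differed between the groups. Summed over markers with a promoter peak, oligodendrocyte markers held 206 to 237 CPM in HDACi-CFC libraries, 197 to 265 in Veh-CFC, 110.3 to 127 in HDACi-Context and 153 to 169 in Veh-Context. Astrocyte markers (12 of 14 measured) held 233 to 276, 248 to 265, 169.6 to 184 and 192 to 220.4 CPM in the same groups. Microglia markers (9 of 15) held 42.1 to 44.9, 50.1 to 64.6, 32.3 to 37.1 and 38.4 to 44.9 CPM. Granule neuron markers held 949 to 1218, 1082 to 1349, 754 to 915 and 983 to 1083 CPM, so that the HDACi-Context libraries were the lowest for each of these neuronal and glial lists. This order was not particular to markers, because HDACi-Context was also lowest for the share of counts in all promoter peaks. That share was 25.1% to 25.3% in HDACi-CFC, 24.8% to 26.6% in Veh-CFC, 18.3% to 19.6% in HDACi-Context and 21.4% to 22.4% in Veh-Context. Within CFC the microglia sums were also lower with the drug than with vehicle, with no overlap, and those of the other 3 lists overlapped. Of 9 microglia promoters 0 were called and 7 were above 0, with a median interaction of 0.45 that lay between 0.14 (without HDACi-Context replicate 3) and 0.81 (without HDACi-Context replicate 1) when a library was left out. Of 14 oligodendrocyte promoters 0 were called and 8 (57.1%) were above 0, against 73.9% of all promoters. Their median was 0.49, or 0.32 with the peak nearest the TSS. The part of other cell types in the interaction was not tested.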

How the data were processed

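H3K27ac chromatin immunoprecipitation sequencing of sorted NeuN+ nuclei was analysed from a peak table in which the authors deposited raw counts for 12 libraries, per the file headers, beside a peak annotation, a chromatin state and a state percent (the authors' deposited percent column was not used). Per the submitters' processing notes the build was mm10, and DESeq2 1.28.1, DiffBind 2.16.2 and HOMER 4.11 were used besides MACS2, Bowtie2 2.3.5, SAMtools 1.9 and Trimmomatic 0.38. Their settings, and the source of the states, are not given in the sources used here. The columns name group and replicate but no antibody, and were taken as the H3K27ac libraries. The smallest count is 1 in every column (3620 cells), so low counts may have been floored before deposit. The series text gives other numbers of treatments and replicates than the labels, which were followed.

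Peaks were kept by filterByExpr with a minimum count of 10, scaled by TMM and fitted over all 12 libraries in edgeR 4.0.16 with limma 3.58.1 (R 4.3.3; glmQLFit with robust estimation). The interaction, the drug effects and the shock effects were contrasts of this 1 fit, and p-values were adjusted by Benjamini-Hochberg over all peaks tested, with a threshold of 0.05. CPM values use TMM-scaled totals. On simulated data with 100 interactions of each size among 144014 peaks, the test recovered 39% of those of log2 1 and 87% of log2 2. The simulated interactions were placed only in peaks above a minimum mean count, so recovery in weaker peaks was not measured. No other drug or shock effect was simulated, unlike in the real libraries. Of its calls 11.3% (16) were false, a larger share than the threshold of 0.05 aims at, and 4.95% of unchanged peaks had p under 0.05. The false share depends on how many interactions were placed, so it does not carry over to the calls in the real libraries. Shares of counts were compared in Python 3.11.15 by exact permutation of drug labels within each protocol, which tests against no drug effect in either.

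Alternatives were RLE factors, library totals, loess offsets, no count filter, robust estimation off, a replicate block, thinned libraries, DESeq2 1.42.0 and each library left out. The peaks, gene lists and tests were chosen with earlier results of these data known. Named peaks are the 8 with the lowest p in each direction among those called, 6 promoter peaks in each direction, genes with most called peaks, up to 4 members of each list, and Fos, Arc, Npas4, Egr1, Nr4a1, Bdnf, Hdac1, Hdac2 and Hdac3. The other loci were named after their values were seen, and the name pattern for Rab and Arf genes was tightened then. Same-numbered libraries of different groups did not deviate together as a set (18 pairs, median r = 0.0007, from −0.28 to 0.35, 2 over 0.1). Pairs with different numbers had a median r of 0.006, from −0.29 to 0.24 (36 pairs, 6 over 0.1). The labels do not state a pairing, and the numbers were not taken as pairs. Gene overlaps, promoters and microRNAs came from RefSeq tables of GRCm38.p6. Input libraries were not used here, and a few loci that the rules name are not reported here.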

Additional observations from a re-analysis of the deposited data

Results flagged for a closer look

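The drug effect differed between the protocols, by the test of that difference, at 49 peaks above 0 and 1 peak below 0, as described in the report. The named peaks among them that meet the rule for a difference between 2 groups' effects were Naa38 (1.32), Ppp6r1 (1.15), Nat14 (1.15), Wscd2 (0.98), Pcdh1 (0.88), Mir6999 (1.61), Hpca (0.97) and Xcl1 (−1.68), all as log2 interactions by edgeR's quasi-likelihood test.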

How the results depend on the processing

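The count of calls, 49 above and 1 below 0, was 95 and 5 with RLE factors, 1 and 0 with library totals, 1 and 0 with loess offsets, 175 and 9 with robust estimation off, 112 and 7 with libraries thinned to the lowest total, and 992 and 3 with DESeq2, which gave no adjusted p for 128437 peaks. Leaving out single libraries gave 0 to 3477 above and 0 to 254 below 0. Without the count filter the counts were 49 and 1. A fit with the replicate block, whose numbers the labels do not state to be pairs, called 86 and 3, of which 47 were among the 49. The cause of these shifts was not tested. With library totals the median interaction was 0.15 in strong promoters, 0.0513 in active enhancers and −0.18 in primed enhancers. With a library left out the difference in count share was 3.66 to 4.88 points in active enhancers and −3.43 to −2.48 in the control state, and the difference in total count was −767938 to 2768200 (485855 with all libraries). Over the 50 called peaks, 544 of 988 alternative values lost the threshold and 444 kept it, and 0 turned sign. The peaks were selected in the same libraries, so the kept sign is no further support. Precision is limited by 3 libraries per group and, at low peaks, by depth: the median SE over all peaks was 0.36.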
